A study of Homo sapiens with 18 samples.

Results

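C4-2B cells were exposed to the AURKA inhibitor VIC-1911 for 2 or for 7 days, and the effect of the drug after 7 days was set against its effect after 2 days, gene by gene. The quantity followed throughout is a difference of 2 log2 fold changes, the effect of VIC-1911 over vehicle at 7 days less the effect of VIC-1911 over vehicle at 2 days. It was computed from the deposited read counts for 13828 genes, which were those present in both count tables with 10 or more counts in 3 or more of the 12 libraries used, out of 20254 genes in both tables and 23152 in either. The 12 libraries were part of 18 in the series, and the other 6 held olaparib, alone or with VIC-1911, at 7 days. Of the genes kept, 340 had at least 10 counts in exactly 3 libraries, with a median of 79.0 counts summed over the 12 libraries, and the 310 genes with exactly 2 such libraries, just outside the limit, had a median of 60.0.

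C4-2B is an established human prostate cancer cell line that was derived from LNCaP. All 4 groups were C4-2B cells labelled wild type, kept in RPMI medium with fetal bovine serum. The 2 vehicle groups received DMSO for 2 or 7 days, the 2 treated groups received VIC-1911 at 0.1 μM for 2 or 7 days, and each group had 3 libraries of poly(A) RNA. No source used here states whether the 3 libraries of a group came from separate cultures, so the p-values measure the spread between these libraries, which may be technical. The groups come from 1 cell line, and bulk RNA cannot tell fewer cells of a kind from less RNA per cell. The 2-day and 7-day libraries carry separate runs of library numbers and were deposited as separate count tables, so time and experiment cannot be told apart in any change between days within a treatment. Each effect of VIC-1911 was taken within its own time against its own vehicle. The difference of the 2 effects still sets one experiment against the other. A difference between the times therefore cannot be told apart from a difference between the experiments. This holds for every called difference and every class given below.

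AURKA is a kinase of the centrosomes and the spindle that drives entry into mitosis and the assembly of a bipolar spindle, with TPX2 as its activating partner. Its mRNA, like that of most mitotic genes, is made mainly in late G2 and mitosis, so the mRNA levels of these genes in a population follow how many cells are cycling. Transcription of that group is held down in arrested cells by complexes that bind a promoter element known as the cell cycle genes homology region (CHR), often near a CCAAT box bound by NF-Y. A separate program, the integrated stress response, acts through the transcription factor ATF4, which binds C/EBP-ATF response elements (CARE) and raises genes for amino acid synthesis, amino acid import and tRNA charging. Cells with damaged DNA raise CDKN1A, which inhibits cyclin-dependent kinases, and MDM2, a ubiquitin ligase of the feedback on this response.

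The promoters of 5 genes with a called difference between the times are shown because they carry these elements, 3 from the mitotic genes and 2 from the amino acid genes. Each holds 250 bases before and 50 bases after the start of the gene, 5′ to 3′ on the strand of the gene, from RefSeq on GRCh38.p14. In the first 3, capitals mark TTTGAA (the CHR) and CCAAT on either strand, and in the other 2 capitals mark TGATGNAA (the CARE, where N is any base) on either strand.
CDK1, chr10:60778081-60778380, plus strand: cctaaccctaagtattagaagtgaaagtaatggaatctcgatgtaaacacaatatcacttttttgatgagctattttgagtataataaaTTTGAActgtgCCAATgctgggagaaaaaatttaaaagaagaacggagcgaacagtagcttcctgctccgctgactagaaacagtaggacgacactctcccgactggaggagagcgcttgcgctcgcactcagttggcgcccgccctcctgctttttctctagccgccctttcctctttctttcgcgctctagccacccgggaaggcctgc
TOP2A, chr17:40417847-40418146, minus strand: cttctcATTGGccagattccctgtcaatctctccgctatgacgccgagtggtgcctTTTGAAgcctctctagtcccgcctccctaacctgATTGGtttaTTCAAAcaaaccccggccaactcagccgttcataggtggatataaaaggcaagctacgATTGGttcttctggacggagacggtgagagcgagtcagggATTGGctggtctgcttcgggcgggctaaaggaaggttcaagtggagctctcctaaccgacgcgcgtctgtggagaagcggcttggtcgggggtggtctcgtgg
NUSAP1, chr15:41332631-41332930, plus strand: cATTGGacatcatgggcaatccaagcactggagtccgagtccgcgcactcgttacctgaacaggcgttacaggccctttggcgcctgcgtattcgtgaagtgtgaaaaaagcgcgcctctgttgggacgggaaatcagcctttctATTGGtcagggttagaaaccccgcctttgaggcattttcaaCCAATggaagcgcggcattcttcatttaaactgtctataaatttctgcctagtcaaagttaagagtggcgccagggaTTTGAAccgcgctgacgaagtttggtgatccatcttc
ASNS, chr7:97872359-97872658, minus strand: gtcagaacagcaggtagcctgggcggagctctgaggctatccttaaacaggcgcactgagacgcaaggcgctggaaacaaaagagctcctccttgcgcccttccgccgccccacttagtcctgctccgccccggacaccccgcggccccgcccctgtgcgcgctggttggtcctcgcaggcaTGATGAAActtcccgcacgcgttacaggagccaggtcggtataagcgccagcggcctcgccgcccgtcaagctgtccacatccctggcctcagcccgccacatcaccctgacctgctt
BCAT1, chr12:24949052-24949351, minus strand: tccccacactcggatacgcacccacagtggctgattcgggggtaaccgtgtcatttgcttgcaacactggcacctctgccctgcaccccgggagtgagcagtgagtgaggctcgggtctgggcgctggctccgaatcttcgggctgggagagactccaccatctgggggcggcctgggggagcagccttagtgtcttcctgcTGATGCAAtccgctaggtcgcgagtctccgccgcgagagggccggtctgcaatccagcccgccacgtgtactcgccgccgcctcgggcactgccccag
The TTTGAA of CDK1 began at position -161 and that of NUSAP1 at position 13, counted from the start in the RefSeq table as 0, which for NUSAP1 lies inside the gene as GENCODE annotates it. The CARE of ASNS began at position -68 and that of BCAT1 at position -48. Among mitotic kinase and spindle genes, 61 of the 69 tested had a promoter in the table, and 42 of these (68.9%) held TTTGAA on either strand, beside 15.4% of all 27305 promoters and 9.3% of those matched to the genes tested (10825 of 13828, 78.3%). Both TTTGAA and CCAAT stood in 33 of the 61 (54.1%), beside 6.08% of all promoters and 3.94% of those of tested genes. Among replication genes and E2F targets, 2 of 45 promoters (4.44%) held TTTGAA. TGATGNAA stood in 4 of 21 promoters of integrated stress response regulators (19.0%) and in 3 of 16 of amino acid transporters (18.8%), beside 3.67% of all promoters and 1.69% of those of tested genes. Lists with a promoter for fewer than 80% of their genes, such as the tRNA synthetases, are not given. Such matches describe letters in a window of this length and not bound sites.

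The 12 libraries held between 3245273 and 4545256 counts in vehicle at 2 days, 5107326 to 7184420 in VIC-1911 at 2 days, 6911220 to 17538796 in vehicle at 7 days and 10009912 to 15935359 in VIC-1911 at 7 days, so the effects at 2 days rest on fewer reads. On the first principal component (50.6% of the variance), the vehicle libraries of 7 days stood apart from the rest, at 45.15 to 53.07, while the VIC-1911 libraries of 7 days were at -1.28 to 6.24 and all 2-day libraries between -32.2 and -20.88. All 10 markers of luminal prostate epithelium were measured. Their summed level was 7480 to 7990 CPM (counts scaled by library size and TMM factor) in vehicle and 7420 to 7760 in VIC-1911 libraries at 2 days, and 13000 to 13400 in vehicle and 9480 to 10100 in VIC-1911 libraries at 7 days. Of the fixed markers of basal cells, fibroblasts, leukocytes and endothelium, 1 of each list passed the filter on counts. The sum of each list stayed at or below 18.8 on the same scale in every library. The levels of single genes below are in CPM (counts scaled by library size and TMM factor).

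More genes passed the limits at 7 days than at 2 days, and for many genes the effect differed between the times. At an adjusted p under 0.05 and a change of at least 1.5-fold, 103 genes were higher (0.745% of those tested) and 141 lower (1.02%) in VIC-1911 than in vehicle libraries at 2 days, against 1017 higher (7.35%) and 1331 lower (9.63%) at 7 days. With every library thinned to 3245273 counts, 79 and 140 genes passed at 2 days and 931 and 958 at 7 days. Without the limit on the fold, 6.32% were higher and 5.14% lower at 2 days, and 27.5% and 28.4% at 7 days. The difference between the effects passed an adjusted p of 0.05 for 3972 genes (28.7%) by edgeR. The effect was higher at 7 days for 2015 of them (14.6%) and lower for 1957 (14.2%), so that 50.7% of these were higher. That share was 61.1% with library size alone as the scaling and 64.9% on FPKM values by limma with a pseudocount of 0.1. A difference of at least 1.5-fold was called for 742 genes higher (5.37%) and 685 lower (4.95%) at 7 days. Across all genes the correlation of the 2 effects was 0.33, described over genes, which are not independent replicates, and 61.7% had the same sign at both times. Among the 244 genes called at 2 days, 199 (81.6%) kept their sign at 7 days.

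The genes were sorted into 4 classes by these calls. An effect was called reversed if it had an adjusted p under 0.05 at both times with opposite signs and a called difference. It also had to be at least 1.5-fold at one time or both. An effect was lasting if it passed at both times with one sign. Among genes not reversed, it was early if it passed at 2 days and not at 7 days, with a called difference opposite in sign to the 2-day effect. It was late if it passed at 7 days and not at 2 days, with a called difference of the same sign as the 7-day effect. By this rule 19 genes had an early higher effect (0.137% of those tested) and 14 an early lower one (0.101%), and 584 had a late higher effect (4.22%) and 620 a late lower one (4.48%). Late does not mean absent at 2 days. Among late genes, 81 of the 584 higher and 132 of the 620 lower had an adjusted p under 0.05 with the same sign at 2 days. These missed only the 1.5-fold limit at that time. Lasting effects were higher for 65 genes (0.47%) and lower for 78 (0.564%), while 12 genes were higher at 2 days and lower at 7 days (0.0868%) and 123 were lower at 2 days and higher at 7 days (0.889%). Most reversed effects were small at 2 days. Of the 123, 20 reached the 1.5-fold limit at 2 days and 114 at 7 days, with median effects of -0.36 and 0.92 (log2). Of the 12, 5 reached it at 2 days and 9 at 7 days. A further 268 genes higher (1.94%) and 653 lower (4.72%) passed at one time with no call of the difference, and their timing could not be told. The classes use these same values, so their sizes are a description and no test was run over their members.

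**Figure D1:**
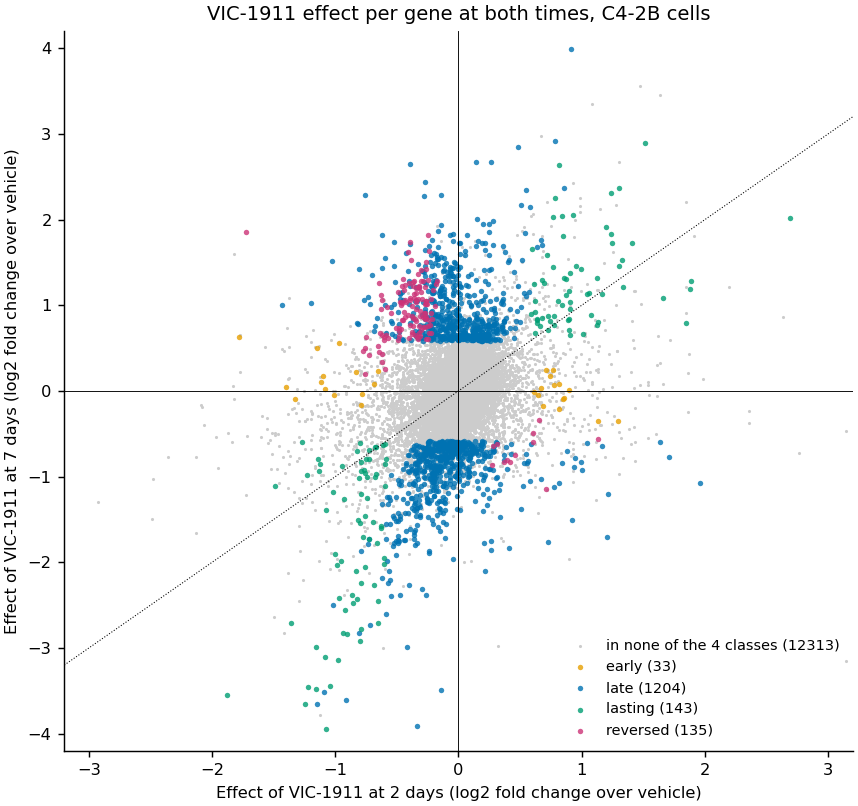
Effect of VIC-1911 over vehicle on each of the 13828 genes at 2 days (x axis) and 7 days (y axis), both as log2 fold change, with genes colored by class, the dotted line marking equal effects, and 31 genes beyond the axes. The 1204 late genes form columns above and below 0 at 2 days, and the 135 reversed genes lie mainly in the upper left.

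The separation between the times came with a change in vehicle libraries more often than with a change in VIC-1911 libraries. Vehicle moved more than VIC-1911 between days for 9537 of all 13828 genes (69%) and for 3365 of the 3972 with a called difference (84.7%), which late and reversed genes have by definition. It did so for 536 of the 584 late higher genes, 519 of the 620 late lower genes and 120 of the 123 genes that went from lower to higher. Late higher genes had a median change between days of -0.96 (log2) in vehicle and -0.13 in VIC-1911 libraries, and genes reversed from lower to higher had -1.41 and -0.1. Genes with a lasting lower effect had medians of 0.61 and -0.23, and vehicle moved more in 51 of the 78. Among early genes vehicle moved more in 16 of the 19 higher ones and in 7 of the 14 lower ones, whose medians were -0.74 in vehicle and 0.46 in VIC-1911 libraries. By the confounding given above, these changes between days cannot be told apart from the change of experiment.

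**Figure D2:**
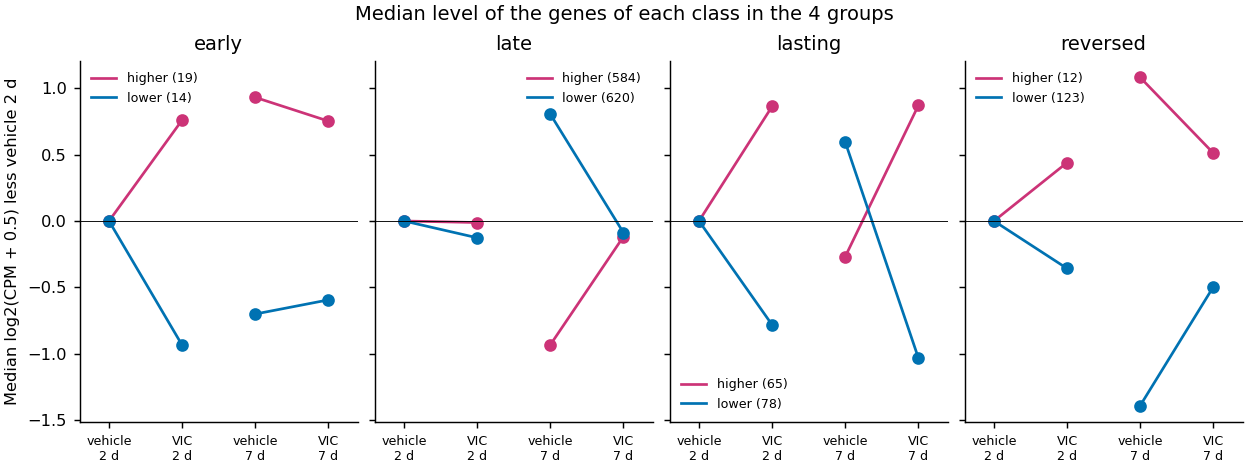
Median level of the genes of each class in the 4 groups, as log2 of mean CPM plus 0.5 less the level in vehicle at 2 days, with the number of genes in each legend. In late and reversed classes the vehicle group at 7 days stands furthest from 0, for example at -0.93 for late higher and -1.39 for reversed lower genes.

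Mitotic genes had a higher effect at 7 days than at 2 days. Of 69 tested kinase and spindle genes, 68 had a called difference upward and 0 downward, beside 14.6% and 14.2% of all genes, and the remaining gene, BORA, chosen here by its value, had a difference of 1.09 that missed the limit. The median effect of the list was -0.21 (log2) at 2 days and 1.29 at 7 days, beside -0.001 and -0.015 over all genes. By class 39 were late and 25 reversed from lower to higher, and all 69 moved more in vehicle than in VIC-1911 libraries between days. Vehicle moved more for 69% of all genes and for 84.7% of those with a called difference. The list was chosen with results of these data known, so its counts are a description.

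AURKA (chr20:56369389-56392337), the target of the drug, was at 75.9, 80.5 and 85.8 CPM in vehicle and 97.1, 94.1 and 97.7 CPM in VIC-1911 libraries at 2 days. At 7 days it was at 25.6, 17.7 and 18.1 CPM in vehicle and 73.0, 71.3 and 80.5 CPM in VIC-1911 libraries. The groups did not overlap at either time, as held for 28.7% of all genes at 2 days and 60.0% at 7 days, and the 7-day vehicle libraries were the low ones. Its effect was 0.25 ± 0.08 (log2, SE) at 2 days and 1.86 ± 0.08 at 7 days, a difference of 1.61 with a 95% interval of 1.37 to 1.84 (adjusted p = 1.05e-15, n = 3 libraries per group, edgeR). VIC-1911 inhibits the kinase and does not delete its gene, so this level does not check the labels. TPX2, the activator of AURKA, went from an effect of -0.07 to 1.43, also a late gene.

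CDK1 (chr10:60778331-60794852), the kinase that drives mitotic entry, changed the sign of its effect. It was at 285, 288 and 276 CPM in vehicle and 227, 238 and 248 CPM in VIC-1911 libraries at 2 days, with every treated library below every vehicle one. At 7 days the order was turned, with 52.8, 39.0 and 47.8 CPM in vehicle and 158, 157 and 172 CPM in VIC-1911 libraries. The effect was -0.25 ± 0.06 at 2 days and 1.82 ± 0.06 at 7 days, and the difference was 2.07 (95% interval 1.89 to 2.25, adjusted p = 3.72e-23, n = 3, edgeR). Between days it fell 6.12-fold in vehicle and 1.46-fold in VIC-1911 libraries, so both groups were lower at 7 days and vehicle by more.

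AURKB, the kinase of the chromosome passenger complex, followed CDK1 with an effect of -0.44 at 2 days and 1.18 at 7 days. TOP2A (chr17:40388525-40417896), which untangles chromosomes before they part, was at 208, 216 and 199 CPM in vehicle and 171, 171 and 170 CPM in treated libraries at 2 days, and at 71.5, 60.4 and 58.6 against 155, 156 and 158 CPM at 7 days. Its level in VIC-1911 libraries was thus close at both times while vehicle fell 3.25-fold. The condensin subunit NCAPH (-0.39 to 1.74), cyclin A2 encoded by CCNA2 (-0.41 to 1.63), the transcription factor MYBL2 (-0.38 to 1.53) and the spindle protein NUSAP1 (-0.45 to 1.31) were reversed in the same way. All differences named in this paragraph were called.

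Replication genes and E2F targets were called upward in 52 of 52, beside 14.6% of all genes. Their median effect was -0.27 at 2 days and 0.92 at 7 days, and 24 of them were reversed and 21 late. RRM2, a subunit of ribonucleotide reductase, was at 177, 165 and 156 CPM in vehicle and 133, 131 and 131 CPM in VIC-1911 libraries at 2 days, and at 52.3, 48.7 and 48.4 against 133, 124 and 129 CPM at 7 days. The treated libraries of both times were close and the vehicle libraries of 7 days were the low group. The replicative helicase subunits MCM2 (-0.27 to 1.04), MCM7 (-0.28 to 0.91) and MCM4 (-0.11 to 1.32) had called differences, with MCM4 late because its effect at 2 days did not pass.

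Among 39 homologous recombination and Fanconi genes, 25 had a called difference upward and 1 downward, beside 14.6% and 14.2% of all genes. The median effect of the list was -0.22 at 2 days and 0.59 at 7 days. BRCA2, a core factor of homologous recombination, was at 44, 36.6 and 37.3 CPM in vehicle and 37.9, 33.5 and 33.6 CPM in VIC-1911 libraries at 2 days, and at 18.9, 20.6 and 15.9 against 39.9, 41.5 and 41.7 CPM at 7 days. The groups overlapped at 2 days and did not at 7 days. Its effect was -0.15 at 2 days, which did not pass (adjusted p = 0.377, edgeR), and 1.11 at 7 days, a difference of 1.26 with a 95% interval of 1.01 to 1.52. The Fanconi conjugating enzyme UBE2T (-0.22 to 1.17) was late as well. BRCA1 (-0.37 to 0.67) and FANCI (-0.27 to 0.85) were reversed. The gene called downward was the checkpoint kinase ATM, with a difference of -0.38, and it is named here for its value. Of the 39 genes, 36 moved more in vehicle than in VIC-1911 libraries between days. Vehicle did so for 69% of all genes and for 84.7% of those with a called difference.

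Genes of the integrated stress response had a lower effect at 7 days than at 2 days, while the sign at both times was mostly the same. Of 26 regulators and their direct outputs, 20 had a called difference downward and 0 upward, beside 14.2% and 14.6% of all genes. The median effect of the list was -0.36 at 2 days and -1.52 at 7 days. Of the 26, 12 were late and 7 lasting. Without the fold limit, 15 of the 26 were already lower at 2 days at an adjusted p under 0.05, and 0 were higher. The list's median change between days was 0.61 in vehicle and -0.42 in VIC-1911 libraries, so here both groups moved, in opposite directions.

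ASNS (chr7:97851677-97872542), the enzyme that makes asparagine, was at 432, 456 and 413 CPM in vehicle and 215, 219 and 261 CPM in VIC-1911 libraries at 2 days. At 7 days it was at 531, 616 and 613 CPM in vehicle and 79.7, 81.7 and 83.2 CPM in VIC-1911 libraries. The treated libraries were lower at both times, 1.87-fold at 2 days and 7.18-fold at 7 days, and the difference of the log2 effects was -1.94 (95% interval -2.11 to -1.77, adjusted p = 3.05e-23, n = 3, edgeR). Between days ASNS rose 1.35-fold in vehicle and fell 2.84-fold in VIC-1911 libraries, the larger change being in the treated cells.

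SLC7A11 (chr4:138164097-138242349), the cystine importer, had the smallest adjusted p for the difference among the genes named (1.73e-25, edgeR). It was at 371, 319 and 353 CPM in vehicle and 163, 151 and 188 CPM in VIC-1911 libraries at 2 days, and at 804, 920 and 933 against 85.9, 84.5 and 75.3 CPM at 7 days. The fold was 2.07 lower at 2 days and 10.8 lower at 7 days, and vehicle and treated levels moved apart from both sides. STC2, a secreted glycoprotein of stressed cells, was at 165, 176 and 168 CPM in vehicle and 107, 105 and 127 CPM in VIC-1911 libraries at 2 days, and at 495, 517 and 547 against 82.8, 86.4 and 86.3 CPM at 7 days. Its 2-day fold of 1.5, rounded, lay just under the limit, so it was counted as late, and most of its change between days was in vehicle (1.61 log2, against -0.41 in VIC-1911 libraries).

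The arms of this program were followed by their own lists. The counts of each list stand beside 14.2% of all genes called downward and 14.6% upward. Of 22 enzymes of amino acid synthesis and one-carbon metabolism, 16 had a called difference downward and 4 upward, with a median effect of -0.16 at 2 days and -1.28 at 7 days. PSAT1, of serine synthesis, was lasting (-0.69 to -2.26), and BCAT1, which transfers the amino group of branched-chain amino acids, was late (-0.42 to -2.99). The 4 upward were TYMS, MTHFD1, SHMT1 and GOT2, of which TYMS makes thymidylate for DNA replication. These 4 were chosen by their values.
Of 17 amino acid transporters, 10 were called downward and 1 upward, with medians of -0.3 and -0.9. SLC3A2, the heavy chain that partners SLC7A11 and SLC7A5, was late (-0.56 to -2.1), as was SLC7A5 (-0.44 to -1.74), while the glutamine importer SLC1A5 was lasting (-0.61 to -2.02). Of 20 cytosolic tRNA synthetases, 12 were called downward and 3 upward, the latter near the share of all genes, with medians of -0.07 and -0.59. GARS (-0.44 to -1.74), SARS (-0.43 to -1.63), CARS (-0.47 to -1.46) and YARS (-0.3 to -1.11) charge glycine, serine, cysteine and tyrosine tRNAs and were late. Of the 20 synthetases, 4 moved more in vehicle than in VIC-1911 libraries between days, beside 69% of all genes.
The regulators TRIB3 (-0.92 to -2.55), a pseudokinase that restrains ATF4, and DDIT4 (-0.95 to -1.98), which restrains mTORC1, were lasting, and ADM2 (-0.48 to -2.38) and NUPR1 (-0.34 to -1.77) were late.

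**Figure D3:**
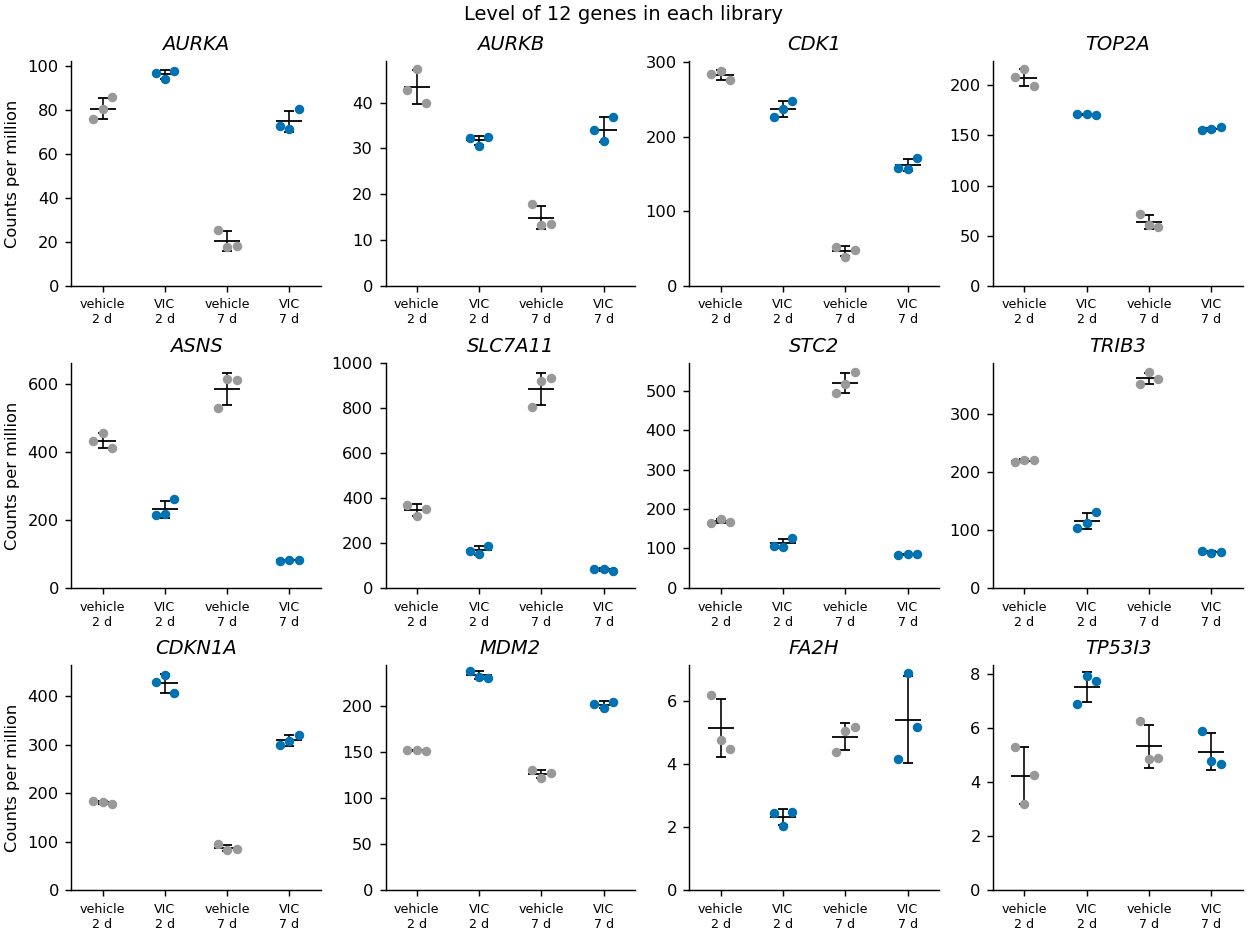
Level in CPM of 12 genes in each of the 12 libraries (points, vehicle gray and VIC-1911 blue), with the mean and SD of 3 libraries as bars. The 7-day vehicle libraries are the low group for AURKA, AURKB, CDK1 and TOP2A and the high group for ASNS, SLC7A11, STC2 and TRIB3, while MDM2 keeps its distance at both times.

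Arrest and feedback genes inducible by DNA damage had a higher effect at both times on median. Of 37 such genes, 7 had a lasting higher effect, 3 a late and 2 an early one, with 2 late lower and 1 reversed from lower. The list had a median effect of 0.37 at 2 days and 0.36 at 7 days. It had 7 called differences in each direction, near the shares of all genes (14.6% upward and 14.2% downward). CDKN1A (chr6:36676460-36687337) was at 183, 182 and 178 CPM in vehicle and 429, 445 and 407 CPM in VIC-1911 libraries at 2 days, and at 94.2, 81.7 and 83.7 against 299, 307 and 321 CPM at 7 days. Treated libraries were higher at both times, 2.36-fold at 2 days and 3.56-fold at 7 days, and the difference of 0.6 (95% interval 0.45 to 0.75) was called (adjusted p = 9.04e-09, edgeR). MDM2 (chr12:68808177-68845544) was at 153, 152 and 151 CPM in vehicle and 239, 232 and 231 CPM in VIC-1911 libraries at 2 days, and at 131, 122 and 127 against 203, 198 and 205 CPM at 7 days. Its effect was 0.62 at 2 days and 0.68 at 7 days, and the difference of 0.06 did not pass (adjusted p = 0.606, edgeR), with a 95% interval of -0.08 to 0.2.

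Some of these genes did not keep their effect. BTG1, which slows proliferation, was at 259, 259 and 264 CPM in vehicle and 395, 408 and 420 CPM in VIC-1911 libraries at 2 days, and at 454, 453 and 454 against 441, 441 and 436 CPM at 7 days. Its early effect of 0.64 gave way to one of -0.05, since the vehicle level at 7 days was as high as the treated level. TP53I3, a quinone oxidoreductase, had an early effect of 0.85 that was -0.09 at 7 days, and its called difference of -0.94 did not pass without the second vehicle library of 2 days (-0.77). SESN2 (-0.24 to -1.89) and GDF15 (-0.1 to -1.12), which are also outputs of ATF4, were late lower genes.

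Of 30 apoptosis genes, 5 were called upward and 4 downward, near the shares of all genes, which were 14.6% and 14.2%. BAX, a pore-forming killer of the BCL2 family, was higher at both times (0.48 to 1.22) and counted as late, with 35.3, 40 and 43.8 CPM in vehicle and 57.8, 57.6 and 52.9 CPM in VIC-1911 libraries at 2 days and 23.9, 21.2 and 24.6 against 51.1, 52.1 and 56.8 CPM at 7 days. CYCS, cytochrome c, went from 0.19 to 0.68. The death receptor genes TNFRSF10B (0.2 to -0.27) and TNFRSF1A (-0.32 to -0.77) had called differences downward.

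Clustered histone genes held 9 lasting higher effects among 33 tested, beside 0.47% of all genes, with a median effect of 0.54 at 2 days and 0.87 at 7 days. The difference was called upward for 4 and downward for 2, not above the shares of all genes, 14.6% and 14.2%. HIST1H2BC was at 5.88, 9.05 and 7.37 CPM in vehicle and 18, 19.7 and 19.6 CPM in VIC-1911 libraries at 2 days, and at 9.38, 9.17 and 7.76 against 22.6, 27.0 and 27.4 CPM at 7 days. Its difference of 0.2 did not pass (adjusted p = 0.518, edgeR, 95% interval -0.21 to 0.62). The linker histone HIST1H1C (0.54 to 1.84), HIST1H2BK (0.69 to 1.27) and HIST1H2BJ (0.82 to 2.64) had larger effects at 7 days, while HIST3H2A had a difference of -0.71. These genes have near-identical copies and most of their mRNA has no poly(A) tail, so their counts in poly(A) libraries are uncertain.

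Androgen-responsive genes leaned toward a lower effect at 7 days, with 20 of 35 called downward and 4 upward, beside 14.2% and 14.6% of all genes. Their medians were 0.2 at 2 days and -0.13 at 7 days. KLK3, which encodes prostate-specific antigen, was at 3360, 3680 and 3670 CPM in vehicle and 2970, 3220 and 3200 CPM in VIC-1911 libraries at 2 days, and at 6380, 6560 and 6470 against 4340, 4220 and 4060 CPM at 7 days. It was lower in treated libraries at both times, and its level rose between days in both, 1.81-fold in vehicle and 1.34-fold with VIC-1911. FOLH1, prostate-specific membrane antigen, had no effect that passed at 2 days (adjusted p = 0.969, edgeR) and one of -0.76 at 7 days, with counts that a near-identical copy may share. STEAP2 changed from 0.02 to -1.16 and PMEPA1 from 0.54 to -0.23, and SLC45A3 was reversed (0.31 to -0.62). These 3 differences were called.
The luminal marker sum moved with these genes between vehicle and VIC-1911 libraries at 7 days, and its part in the result was not tested.

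**Figure D4:**
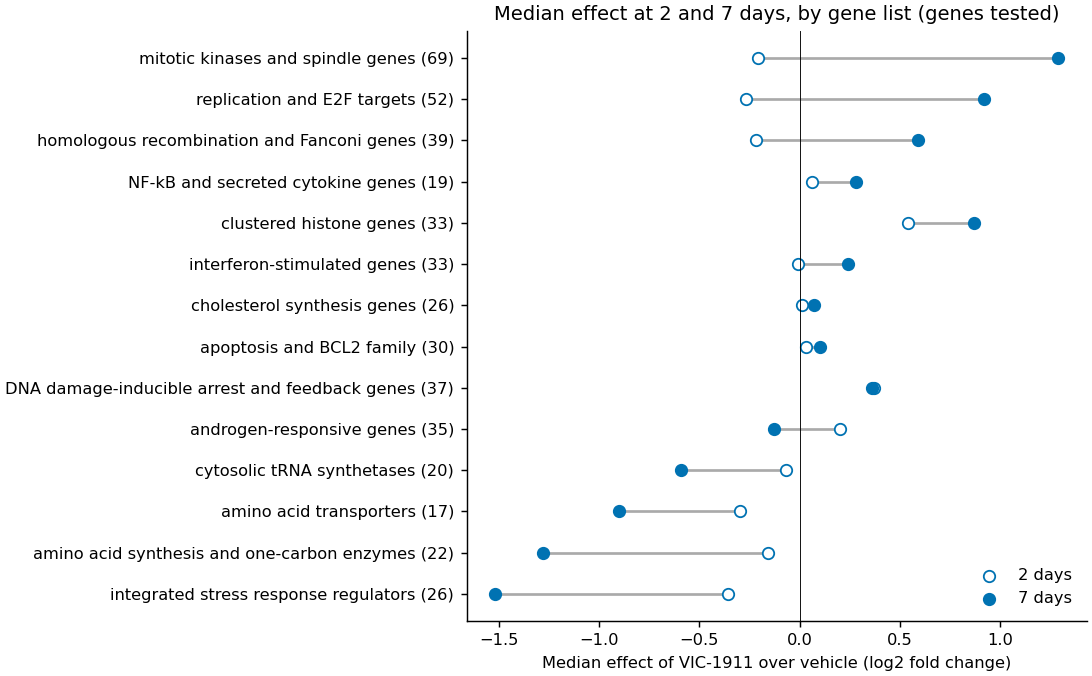
Median effect of VIC-1911 (log2 fold change over vehicle) at 2 days (open circles) and 7 days (filled circles) for 14 gene lists, with the number of genes tested in brackets. Mitotic genes run from -0.21 to 1.29, integrated stress response regulators from -0.36 to -1.52, and the medians of arrest and feedback genes, 0.37 and 0.36, coincide.

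In the smaller lists the counts stand beside 14.6% of all genes called upward and 14.2% downward. Of 26 cholesterol synthesis genes, 9 were called upward and 7 downward, with EBP at -0.15 and 0.64 and SC5D at 0.07 and -0.62, neither passing at 2 days, TM7SF2 at 0.2 and -0.42, all enzymes of the pathway, and its regulator SREBF2 at -0.21 and -0.75. Of 33 interferon-stimulated genes, 5 were called upward, near the share of all genes, and 1 downward. OAS3, a sensor of double-stranded RNA, was at 34.4, 30.1 and 35.1 CPM in vehicle and 26.6, 26.2 and 28.9 CPM in VIC-1911 libraries at 2 days, and at 13.6, 11.3 and 10.2 against 27.8, 29.1 and 29.5 CPM at 7 days, with a late effect. OAS1, which reached the count minimum only with the VIC-1911 libraries of 7 days, where it is high, had a difference of 2.43 at levels of at most 2.61 CPM that did not pass without the second vehicle library of 2 days (2.18), and ISG20, the one called downward, -1.11. Of 19 NF-kB and cytokine genes, fewer than those shares give were called, 2 upward, NFKB1 (0.31) and NFKB2 (0.29), and 2 downward, among them IGFBP3 (-0.85), whose call was lost under 11 of the alternatives, as that of NFKB2 was under 7. NFKB2 did not pass without the second vehicle library, the third vehicle library or the third VIC-1911 library of 2 days, or without the second vehicle or first VIC-1911 library of 7 days (0.25 to 0.28). IGFBP3 did not pass without the second library or the third library of either group at 2 days, or without the third vehicle or second VIC-1911 library of 7 days (-0.91 to -0.72).

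**Figure D5:**
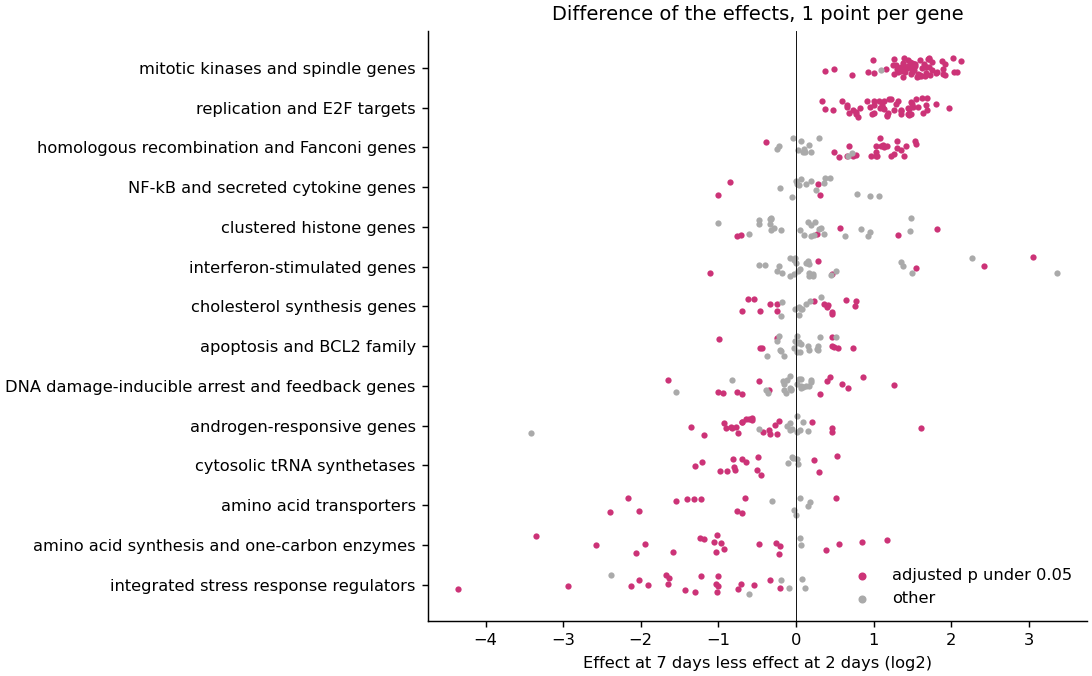
Difference of the effects (log2, 7 days less 2 days) for each gene of 14 lists, 1 point per gene, with called differences (adjusted p under 0.05) in magenta and others in gray. All mitotic and replication genes lie to the right of 0, and the other lists straddle it.

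Early effects were few. Of the 33 early genes, 19 were under 10 CPM on average in all 4 groups, and the highest group mean per gene ran from 0.819 to 453 CPM with a median of 9.53. Those that were higher at 2 days and named by the ranking rule were ABCA12, a lipid transporter (1.14 to -0.35), the ADP-ribose phosphatase ADPRM (0.82 to -0.21) and TP53I3. With thinned counts the differences of ADPRM (-0.74) and FA2H (1.02) were not called. The early lower genes were the heparan sulfate cleaving enzyme HPSE (-0.97 to 0.56, a difference of 1.53 that was not called without the second vehicle library of 2 days, 1.19, or the third VIC-1911 library of 7 days, 1.23), the fatty acid hydroxylase FA2H (-1.1 to 0.18) and MT2A (-1.09 to 0.02). MT2A, a metallothionein that binds zinc and copper, was the best measured of the 6, at 54.2, 58.4 and 63.9 CPM in vehicle and 27.5, 29.0 and 27.3 CPM in VIC-1911 libraries at 2 days. At 7 days it was at 33.7, 26.9 and 28.0 CPM in vehicle and 34.2, 27.8 and 29.0 CPM in VIC-1911 libraries, so the libraries overlapped and all 6 were near the treated level of 2 days. The difference was 1.11 (95% interval 0.85 to 1.37, adjusted p = 2.08e-09, n = 3, edgeR). FA2H was at 6.19, 4.75 and 4.47 CPM in vehicle and 2.43, 2.03 and 2.48 CPM in VIC-1911 libraries at 2 days and between 4.15 and 6.9 CPM in all libraries at 7 days, near its vehicle level of 2 days.

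Of the late genes named by the ranking rule, the upward ones were RPRML, a relative of reprimo (-0.81 to 1.42), the intermediate filament gene NES (-0.6 to 1.55) and TMSB15A, an actin-binding thymosin (-0.4 to 1.72), none of which passed at 2 days. NES was at 2.82, 1.29 and 1.44 CPM in vehicle and 7.92, 5.23 and 4.22 CPM in VIC-1911 libraries at 7 days. The downward ones were found almost wholly in vehicle libraries of 7 days. KLHDC7B and LAMP3 reached the minimum of 10 counts in 3 libraries only through the vehicle libraries of 7 days, where they are high, so that they had to differ, and their values are a description. KLHDC7B had 98, 146 and 55 counts in vehicle and 0, 1 and 0 counts in VIC-1911 libraries at 7 days, a ratio of 299.0 with a 95% counting interval of 53.2 to 11800, and at most 2 counts in any 2-day library, so no fold is given at 2 days. PRSS1, a trypsinogen gene with close copies, had 1468 counts in vehicle and 14 in VIC-1911 libraries at 7 days, a ratio of 105.0 (62.2 to 192.0), and LAMP3, a lysosomal membrane protein, had 676 and 20, a ratio of 33.8 (21.7 to 55.6). At 2 days PRSS1 had 31 and 20 counts and LAMP3 13 and 15. These intervals cover counting error only.

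Lasting effects with the largest smaller effect were ZNF812 (1.51 to 2.89), HIST1H2BC and CCDC141 (1.31 to 2.37) upward and MOV10L1 (-2.32 to -4.64), PDE2A (-1.88 to -3.55) and BEST1 (-1.48 to -4.85) downward. PDE2A, a phosphodiesterase of cyclic nucleotides, was at 3.72, 5.43 and 6.93 CPM in vehicle and 1.29, 0.811 and 2.19 CPM in VIC-1911 libraries at 2 days, and at 15.1, 13.4 and 17.8 against 1.06, 1.36 and 1.34 CPM at 7 days. Treated levels were close at both times and the vehicle level was higher at 7 days. Its difference of -1.67 did not pass without the third VIC-1911 library of 2 days (-1.23), nor did that of CCDC141 (1.07) without the third vehicle library of 2 days (0.95) or the first of 7 days (0.78). The CCDC141 call was also lost with thinned counts (0.76) and with limma on log2(FPKM + 0.1) (0.56) and log2(FPKM + 1) (0.01). MOV10L1 reached the count minimum only with the vehicle libraries of 7 days, where it is high, so its values are a description. At 2 days it had 2, 12 and 6 counts in vehicle and 4, 0 and 2 in VIC-1911 libraries, so its 2-day effect rests on few counts. Its difference (-2.32) did not pass (adjusted p = 0.0711, edgeR). It passed without the second vehicle library of 2 days (-2.98), the first of 7 days (-2.52) or the second VIC-1911 library of 2 days (-2.75). These passes share the same limits. BEST1 overlaps FTH1 on the other strand, and the counting was not stated to use strand, so its counts are uncertain. Of all lasting genes, the difference was called for 19 of the 65 higher ones, of which 18 grew and 1 shrank, and for 44 of the 78 lower ones, all of which grew.

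Effects that turned from higher to lower were rare. MYBPC1, a myosin-binding protein, was at 12.4, 13.3 and 16.3 CPM in vehicle and 31.2, 29.8 and 31.8 CPM in VIC-1911 libraries at 2 days, and at 15.1, 16.9 and 13.6 against 9.75, 10.5 and 10.9 CPM at 7 days. The change between days did not pass in vehicle (0.13 log2, adjusted p = 0.4, edgeR) and VIC-1911 libraries fell by 1.57 on the log2 scale. By contrast, vehicle moved more in 10 of the 12 genes reversed from higher to lower, beside 84.7% of all genes with a called difference. SLC30A4, a zinc exporter, was at 90.1, 89.3 and 98.1 CPM in vehicle and 137, 117 and 125 CPM in VIC-1911 libraries at 2 days, and at 306, 329 and 319 against 199, 198 and 172 CPM at 7 days. Its effect went from 0.46 to -0.75 as its level rose in both treatments, and STEAP1B, a metalloreductase relative, went from 0.71 to -1.15.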

How the data were processed

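RNA-seq of C4-2B cells was taken from 12 of 18 libraries, with groups read from the sample titles. Per the labels, the authors aligned reads to hg38 with STAR 2.6.0, and they deposited raw counts per gene, 1 table per time point, with FPKM values computed by their own script. The labels and the published methods differ on the kits, and strand use in counting is not given in the sources used here. Counts were fitted in 1 model of 4 group means with edgeR 4.0.16 in R 4.3.3 (TMM, glmQLFit and glmQLFTest), and p-values were adjusted by Benjamini-Hochberg over 13828 genes, the minimum being 10 counts in 3 libraries. The biological coefficient of variation was 3.99% and TMM factors were 0.9654 to 1.038. Per-library levels of genes are CPM, and the marker sums leave out the TMM factor. Members and lists were chosen with earlier results of these data known. Genes were named by 3 rules: 12 genes of interest, the 3 with the largest difference per class and direction (for lasting, the largest smaller effect; at least 5 CPM in a group, libraries not overlapping), and the 4 smallest adjusted p-values per list. Some genes these rules name are not reported here. Positions are GENCODE 44 on GRCh38, and 43 of the 80 named genes with a position overlap another gene, which makes their counts uncertain. Names turned into dates (28 per table, 0.193% and 0.182% of counts) were kept in the fit and not named, and 2 duplicated names were left out. On simulated data with 200 changed genes, the difference was recovered for 73 of 100 at 1.5-fold and 87 of 100 at 2-fold, with 7 unchanged genes called. The changed genes were drawn above a minimum mean count, and all other genes had the same simulated level in every group. These rates therefore do not cover genes near the count filter or data with as many differences as found here. Alternatives were DESeq2 1.42.0, upper-quartile and library-size scaling, 2 other filters, a replicate block, limma 3.58.1 on log2(FPKM + 0.1) and log2(FPKM + 1), all 18 libraries, thinned counts, a 2-fold limit and each library left out.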

Additional observations from a re-analysis of the deposited data

Results flagged for a closer look

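The effect of VIC-1911 was tested for a difference between the 2 times, and each result below passed that test in edgeR at an adjusted p under 0.05. The difference was called for 2015 genes with a higher effect at 7 days and 1957 with a lower one. Values are log2, effect at 7 days less effect at 2 days, with n = 3 libraries per group. Among late higher genes the difference was NFKB2 0.29, CYCS 0.49, BAX 0.74, EBP 0.78, BRCA2 1.26, HIST1H1C 1.31, UBE2T 1.39, MCM4 1.44, TPX2 1.5, OAS3 1.55, AURKA 1.61, TMSB15A 2.12, NES 2.15, RPRML 2.22 and OAS1 2.43. Among genes reversed from lower to higher it was BRCA1 1.04, FANCI 1.12, MCM7 1.19, MCM2 1.31, TOP2A 1.57, AURKB 1.63, RRM2 1.69, NUSAP1 1.75, MYBL2 1.92, CCNA2 2.04, CDK1 2.07 and NCAPH 2.13. Late lower genes had PRSS1 -5.44, LAMP3 -4.66, BCAT1 -2.57, STC2 -2.02, ADM2 -1.91, SESN2 -1.65, SLC3A2 -1.54, NUPR1 -1.43, SLC7A5 -1.31, GARS -1.3, GPT2 -1.23, SARS -1.21, STEAP2 -1.18, ISG20 -1.11, GDF15 -1.01, CARS -0.98, YARS -0.81, FOLH1 -0.75, SC5D -0.69, SREBF2 -0.54, TNFRSF1A -0.44 and KLK3 -0.43. Lasting higher genes had HIST1H2BK 0.57, CDKN1A 0.6, CCDC141 1.07, ZNF812 1.38 and HIST1H2BJ 1.82, and lasting lower genes BEST1 -3.37, SLC7A11 -2.39, ASNS -1.94, PDE2A -1.67, TRIB3 -1.63, PSAT1 -1.58, SLC1A5 -1.41 and DDIT4 -1.03. The early higher genes had ABCA12 -1.49, ADPRM -1.03, TP53I3 -0.94 and BTG1 -0.69, and the early lower genes MT2A 1.11, FA2H 1.28 and HPSE 1.53. Genes reversed from higher to lower had STEAP1B -1.85, MYBPC1 -1.7, SLC30A4 -1.21 and SLC45A3 -0.93. Named genes in none of these classes had IGFBP3 -0.85, PMEPA1 -0.77, HIST3H2A -0.71, TM7SF2 -0.62, TNFRSF10B -0.46 and NFKB1 0.31. LAMP3 and OAS1 reached the count minimum only through the group where they are high, so their values are a description. KLHDC7B is left out of these values because its 2-day libraries held at most 2 counts.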

How the results depend on the processing

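Of the counts of genes called, by direction and class, 295 values under the alternatives stayed within 1.5 times the main count and 25 did not. For the counts of called members in the gene lists shown in the figures, 554 values stayed within that range and 62 did not. With thinned counts, 1264 genes had a lower effect at 7 days and 11 an early higher one, and 12153 genes were tested. With limma on log2(FPKM + 0.1), 237 genes were lower at 2 days, 32 early lower and 119 lasting lower. With limma on log2(FPKM + 1), 59 and 78 genes were called at 2 days and 536 lower at 7 days, and 10 were early higher, 402 late lower, 39 lasting higher, 47 lasting lower and 5 reversed from higher. A pseudocount of 1 shrinks the change of low genes by construction. A 2-fold limit left 34 higher and 38 lower at 2 days and 430 and 459 at 7 days, with 6 and 8 early, 223 and 241 late, 19 and 18 lasting and 2 and 55 reversed genes, fewer by construction. The share of called differences that were higher at 7 days, 50.7%, became 61.1% with library size alone and 64.9% and 63.3% on FPKM values, and the cause was not tested.

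With each library left out in turn, between 1719 and 2414 genes had a higher and between 1603 and 1877 a lower effect at 7 days. The classes ranged from 13 to 21 and 10 to 19 (early), 503 to 717 and 511 to 618 (late), 49 to 69 and 54 to 83 (lasting) and 9 to 15 and 84 to 154 (reversed). The replicate number as a block gave 2032 and 2005 called differences, 3873 of them shared with the main result. Same-numbered vehicle and VIC-1911 libraries correlated between -0.001 and 0.01 at 2 days and between -0.019 and 0.144 at 7 days in their deviations from group means. Differently numbered ones ran from -0.128 to 0.12 at 7 days. With 3 libraries per group, these values cannot decide whether the numbers pair the samples. Among named genes, 1780 values kept their direction and call, 35 lost the call and 7 (MOV10L1) gained it. Depth limits the 2-day effects of genes at a few CPM.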

Other observations

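Genes named in this part were chosen after their values were seen. Genes of protein folding in the endoplasmic reticulum had a lower effect at 7 days in 23 of 25 and a higher one in 0, with a median effect of 0.01 (log2) at 2 days and -0.44 at 7 days, beside called differences in 14.2% and 14.6% of all genes. HERPUD1, which helps clear misfolded proteins, was at 197, 214 and 190 CPM in vehicle and 176, 178 and 182 CPM in VIC-1911 libraries at 2 days, and at 420, 432 and 422 against 134, 144 and 145 CPM at 7 days. The transcription factor XBP1 (-0.49 to -1.42) and the chaperone partner DNAJB9 (0.01 to -1.39) were also late. Glycolytic and hypoxia-responsive genes had 15 called upward and 4 downward of 35. LDHA, lactate dehydrogenase, was at 986, 1080 and 1110 CPM in vehicle and 1210, 1260 and 1220 CPM in VIC-1911 libraries at 2 days, and at 375, 334 and 355 against 775, 745 and 779 CPM at 7 days, while VEGFA, a growth factor for vessels, went from -0.57 to -2.24. Both were late, in opposite directions.

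The counts in this paragraph stand beside 14.6% of all genes called upward and 14.2% downward. The downward counts of tubulin and heat shock genes and both counts of cytosolic ribosomal proteins were not above these shares. Tubulin and related genes were called upward in 7 and downward in 2 of 17. TUBA1B, an alpha tubulin, was at 1100, 1150 and 1100 CPM in vehicle and 858, 926 and 921 CPM in VIC-1911 libraries at 2 days, and at 294, 249 and 249 against 649, 620 and 665 CPM at 7 days, a reversed effect, with counts that close copies may share. TUBE1, which encodes epsilon tubulin of the centriole, went from -0.5 to -1.91. Heat shock genes were called upward in 11 and downward in 2 of 21, with HSPB1 at 0.17 and 0.72 and the mitochondrial HSPA9 at -0.13 and -0.59. Respiratory chain subunits were called upward in 20 and downward in 0 of 40, with a median difference of 0.2, and ribosome biogenesis genes upward in 19 and downward in 1 of 32. Cytosolic ribosomal proteins were called upward in 1 and downward in 3 of 48. Of 37 autophagy and lysosome genes, 2 were called upward and 16 downward, with the protease CTSD at 0.18 and -0.28. Of 20 inhibitors, cyclins D and RB family genes, 11 were called upward and 1, RBL2, downward (-0.03 to -0.56).

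Beside 14.6% of all genes called upward and 14.2% downward, the other lists had 7 upward and 3 downward of 23 (NRF2, glutathione and ferritin), 5 and 4 of 14 (fatty acid synthesis), 3 and 3 of 16 (MHC class I), 4 and 6 of 18 (snoRNA hosts), 1 and 11 of 18 (junction, basal and mesenchymal) and 1 and 0 of 5 (neuroendocrine). Of the 15 mitochondrially encoded transcripts listed, 0 were tested.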
